A study of Mus musculus with 4 samples.

Results

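The genes described here encode 10 enzymes and carriers that remove superoxide and peroxides: Cat, Sod1, Sod2, Gpx1, Gpx4, Prdx1, Prdx3, Prdx5, Prdx6 and Txn1. They were taken by gene name from tables of 35522 genes, and all 10 were found in each table and passed the filter on low counts, which left 13303 genes. Liver RNA was sequenced in 4 libraries, 2 from livers labelled Dph1 KO and 2 from livers labelled Control. The Dph1 protein takes part in the first step of making diphthamide, which is formed on a histidine of elongation factor eEF2. All livers were of strain C57BL/6 and were collected 1 day after diethylnitrosamine (DEN), a liver carcinogen that cytochrome P450 enzymes activate to a DNA-alkylating agent. The question is which of these genes differ by Dph1 genotype once both groups have had the carcinogen. How Dph1 was removed, in which cells, and the age of the mice were not stated. No liver without DEN was analysed here, so differences present before DEN and differences in the response to it cannot be told apart.

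Superoxide dismutases convert superoxide into hydrogen peroxide, with Sod1 acting mainly in the cytosol and Sod2 in the mitochondrial matrix. Hydrogen peroxide is then removed by catalase (Cat) in peroxisomes, by glutathione peroxidases, which draw electrons from glutathione, and by peroxiredoxins, most of which draw them from thioredoxin. Hepatocytes hold large amounts of these enzymes, since their peroxisomes, mitochondria and cytochrome P450 enzymes all release reactive oxygen.

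The stretches upstream of 4 of these genes are shown with their matches to 4 short motifs. Prdx3 is shown as the gene that passed the test, Gpx1 as the most abundant one, and Prdx1 and Sod1 as the 2 of the genes whose stretch holds the core of the antioxidant response element, a sequence bound by NRF2. Each is the 250 bases before the RefSeq transcript start in GRCm38.p6, written 5′ to 3′ on the gene's strand, with motif matches in capitals.
Prdx3, chr19:60874539-60874788, minus strand: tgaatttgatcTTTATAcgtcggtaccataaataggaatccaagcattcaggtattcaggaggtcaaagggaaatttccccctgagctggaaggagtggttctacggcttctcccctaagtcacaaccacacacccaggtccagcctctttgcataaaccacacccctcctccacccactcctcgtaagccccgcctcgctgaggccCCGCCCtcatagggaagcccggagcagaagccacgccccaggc
Gpx1, chr9:108338830-108339079, plus strand: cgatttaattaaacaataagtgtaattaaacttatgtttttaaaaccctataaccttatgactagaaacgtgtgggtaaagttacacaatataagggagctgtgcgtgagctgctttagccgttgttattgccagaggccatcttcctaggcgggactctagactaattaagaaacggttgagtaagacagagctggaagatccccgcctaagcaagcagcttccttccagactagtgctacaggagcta
Prdx1, chr4:116685349-116685598, plus strand: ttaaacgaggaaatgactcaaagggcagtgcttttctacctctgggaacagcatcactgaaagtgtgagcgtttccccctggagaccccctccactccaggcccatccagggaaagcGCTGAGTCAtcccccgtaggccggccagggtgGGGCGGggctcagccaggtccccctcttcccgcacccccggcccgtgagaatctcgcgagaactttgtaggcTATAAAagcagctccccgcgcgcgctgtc
Sod1, chr16:90220512-90220761, plus strand: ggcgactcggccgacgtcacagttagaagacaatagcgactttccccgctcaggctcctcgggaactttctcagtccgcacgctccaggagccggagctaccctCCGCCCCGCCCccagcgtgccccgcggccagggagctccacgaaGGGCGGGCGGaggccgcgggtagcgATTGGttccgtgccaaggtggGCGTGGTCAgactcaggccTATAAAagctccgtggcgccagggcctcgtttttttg
The motifs searched on both strands were TGACNNNGC (the antioxidant response element core), GGGCGG (the GC box), TATAAA and CCAAT. Matches of 1 motif may overlap each other, as the GC boxes of Sod1 do. Prdx1 and Sod1 each held 1 match to TGACNNNGC, on the other strand 133 and 56 bases before the start, and 10.2% of all 32851 promoter stretches of this length held it. A TATAAA match lay 29 bases before the start in Prdx1, 37 bases before it in Sod1 and 239 bases before it, on the other strand, in Prdx3, where 12.4% of all stretches held one. The Gpx1 stretch held none of the 4 motifs. The table of promoters had 9 of the 10 genes, with no entry for Prdx6. These genes had 12 stretches, 4 of them for Gpx4. A GC box lay in 10 of the 12, where 32.7% of all stretches held one. CCAAT lay in 6 of the 12 (those of Cat, Sod1 and Sod2 and 3 of Gpx4), where 33.8% of all held one. Some Gpx4 stretches overlap and count the same matches more than once. By gene, 8 of the 9 had a GC box and 4 had CCAAT.

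The libraries held 20410978 and 21137358 reads in genes for Dph1 KO and 19474596 and 20355790 for Control. Dph1 itself had 17.8 and 31.5 CPM (reads relative to a library size scaled by TMM) in Dph1 KO livers, against 70.3 and 68.3 CPM in Control livers, so its transcripts were reduced and still present (log2 fold change -1.49, SE 0.26; edgeR adjusted p = 0.0107). Of the Dph1 reads 42.2% to 59.0% matched uniquely, and its junction reads gave 4.45 and 7.77 CPM in Dph1 KO and 26.5 and 26.2 CPM in Control, a log2 ratio of -2.11. Of 12 hepatocyte markers all had reads, with summed levels of 108588 to 110048 TPM (reads relative to exon length and library) in Dph1 KO livers and 92230.5 to 97044 TPM in Control livers. Red cell markers summed to 1593 to 1851 TPM in Dph1 KO and 2193 to 4235 TPM in Control. Macrophage markers summed to 279 to 358 TPM in Dph1 KO and 331 to 353 TPM in Control. Endothelial markers summed to 119 to 147 TPM in Dph1 KO and 102 to 115 TPM in Control. Neutrophil markers summed to 42.5 to 48.6 TPM in Dph1 KO and 19.2 to 21.5 TPM in Control. Most of the neutrophil sum came from 1 gene, Ltf, at 43.5 and 34.4 TPM in Dph1 KO and 14.0 and 15.6 TPM in Control. Of the 4 tested neutrophil markers 2 stood higher and 2 stood lower, with a median log2 fold change of -0.12. Stellate cell markers summed to 93.7 to 128 TPM in Dph1 KO and 92.7 to 94.6 TPM in Control, and bile duct markers to 18.7 to 25.03 TPM in Dph1 KO and 16.5 to 30.4 TPM in Control. TPM values are not TMM-scaled. Each of the 10 enzyme genes had a higher log2 difference in TPM than with TMM scaling, such as 0.058 and -0.34 for Sod2. With TMM scaling the median log2 fold change was 0.16 for the hepatocyte list, -0.19 for red cells and -0.0061 for macrophages. It was -0.086 for endothelial, -0.24 for stellate cell and -0.51 for bile duct markers, against 0.04 over all tested genes. Of these lists, 1 of 12 hepatocyte markers rose, and 1 of 5 tested red cell markers rose and 1 fell. Of the others, 1 of 10 macrophage markers fell, 1 of 4 neutrophil markers (Ltf) rose and 3 of 8 stellate cell markers fell. Over all tested genes 4.86% rose and 7.47% fell. DESeq2 called 3 of the 12 hepatocyte markers, all higher, where it called 4.77% of all genes higher and 10.3% lower. Its counts for the red cell, macrophage, neutrophil and stellate cell markers were those of edgeR. The red cell calls were the alpha globin genes Hba-a2 (log2 fold change 6.37) and Hba-a1 (-2.51), which went opposite ways. The part of these markers in the results below was not tested. No endothelial (8) or bile duct (5) marker was called by edgeR or DESeq2, with 1 endothelial and 2 bile duct markers lower in edgeR before adjustment (p under 0.05). Whether each library is a different mouse was not stated, and the p-values therefore reflect the spread among these samples, which may be technical.

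In Dph1 KO livers 1 of the 10 genes rose, the mitochondrial peroxiredoxin gene Prdx3, and the other 9 were not called in either direction. Over all 13303 tested genes 12.3% were called, 4.86% as rises and 7.47% as falls (edgeR, adjusted p under 0.05). The count of 1 in 10 is thus near the share of all genes. At an unadjusted p under 0.05, 2 of the 10 stood higher and 4 stood lower, where 34.2% of all tested genes had such a p. DESeq2 called 1 rise and 4 falls (Gpx1, Gpx4, Prdx6 and Sod1) among the 10, where it called 15.1% of all genes, 4.77% as rises and 10.3% as falls. RLE scaling called 12.8% of genes, no filter 11%, unique reads 12.3% and exon reads 15.4%, each with Prdx3 as the 1 call among the 10. The CPM ranges of the groups were apart for each of the 10, as they were for 67.4% of all tested genes (34.9% higher and 32.5% lower in Dph1 KO). The log2 fold changes ran from -0.84 to 0.75, with 4 above 0 (Prdx3, Txn1, Cat and Prdx1) and 6 below 0 (Gpx1, Gpx4, Prdx6, Sod1, Prdx5 and Sod2). Their median was -0.44, against 0.04 over all tested genes. With trends on GC content and exon length removed, as described below, their median was -0.044, against 0.0056 over all genes. In whole liver RNA, fewer cells of a type and less RNA per cell cannot be told apart.

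**Figure D1:**
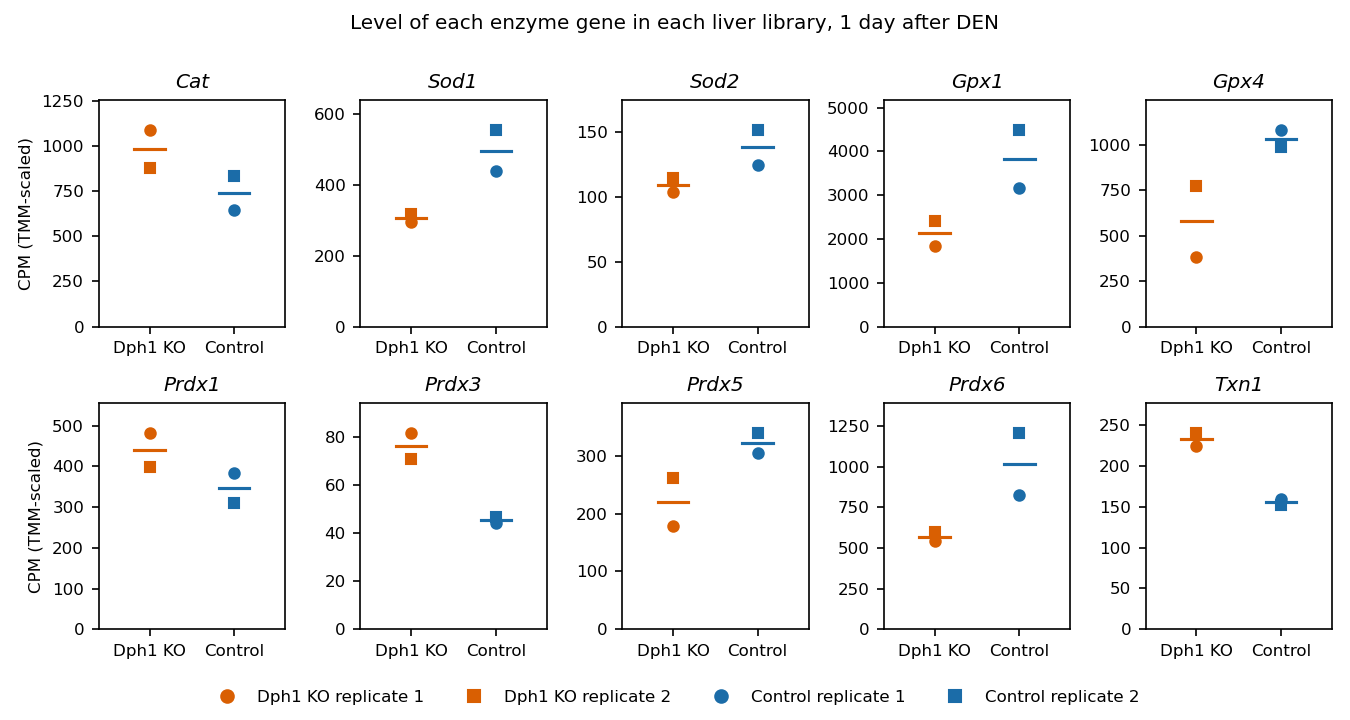
TMM-scaled CPM (vertical axes, each from 0) of the 10 genes in the 2 Dph1 KO libraries (orange) and the 2 Control libraries (blue), with short lines at the group means. Cat, Prdx1, Prdx3 and Txn1 stand higher in both Dph1 KO libraries, the other 6 genes stand lower, and the Dph1 KO points of Gpx4 lie far apart, at 385 and 773 CPM.

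Prdx3 reduces hydrogen peroxide in the mitochondrial matrix. Prdx3 (gene ID 11757; GRCm38 chromosome 19, 60864066 to 60874538, minus strand, 7 exons) had 82.0 and 70.8 CPM in Dph1 KO livers, against 44.3 and 46.8 CPM in Control livers. The groups did not overlap, and the lower Dph1 KO library stood well above the higher Control library. The means were 76.4 ± 7.89 CPM in Dph1 KO and 45.5 ± 1.77 CPM in Control (SD, n = 2 each), a log2 fold change of 0.75 (SE 0.20) and a 1.68-fold rise (edgeR adjusted p = 0.0405). Prdx3 was no longer called without Control replicate 1 (log2 fold change 0.70, edgeR adjusted p = 0.293) and without Control replicate 2 (0.79, adjusted p = 0.267), where the fold change itself moved little. All genes lost calls there too, with 5.43% called without Control replicate 1 and 3.82% without Control replicate 2, against 9.74% without replicate 1 of Dph1 KO and 39.3% without its replicate 2. At least 99.8% of its reads in each library matched a single place in the genome.

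Txn1, the cytosolic thioredoxin that returns electrons to some of the peroxiredoxins, lies on chromosome 4 at 57943373 to 57956411. It had 225 and 241 CPM in Dph1 KO livers, against 159 and 153 CPM in Control livers. Both pairs of libraries were tight and the groups were well apart, but with a log2 fold change of 0.58 (SE 0.22) the gene missed the threshold (edgeR adjusted p = 0.101). Other treatments of the counts called Txn1: it rose with scaling by the library total alone (log2 fold change 0.83, edgeR adjusted p = 0.00960), after removal of trends on GC content and length (0.56, adjusted p = 0.0395), and with either Dph1 KO library left out (0.65, adjusted p = 0.0449 without replicate 1 and 0.54, adjusted p = 0.0389 without replicate 2). It was not called without Control replicate 1 (edgeR adjusted p = 0.463), without Control replicate 2 (adjusted p = 0.532), by DESeq2 (adjusted p = 0.0660), or with RLE scaling, no filter, unique reads or exon reads.

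Prdx1, the main cytosolic peroxiredoxin (chromosome 4, 116685599 to 116700000), had 483 and 398 CPM in Dph1 KO livers, against 384 and 310 CPM in Control livers. The lower Dph1 KO library was barely above the higher Control library, and the gene was not called (log2 fold change 0.34, SE 0.26; edgeR adjusted p = 0.359). Of its reads 87.9% to 88.4% were uniquely matched, so a part may belong to copies elsewhere. A gene on the other strand, AV051173, overlaps Prdx1 and had at most 6 reads in any library.

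Prdx5, which removes peroxides in mitochondria, peroxisomes and cytosol (chromosome 19, 6906819 to 6909645), had 179 and 262 CPM in Dph1 KO livers, against 305 and 340.5 CPM in Control livers. The Dph1 KO libraries lay far apart, and the gene was not called (log2 fold change -0.55, SE 0.26; edgeR adjusted p = 0.165). Leaving out Dph1 KO replicate 2 gave -0.83 and a call (adjusted p = 0.00933), while leaving out Dph1 KO replicate 1 gave -0.27. Prdx6, which reduces phospholipid hydroperoxides and also has phospholipase activity (chromosome 1, 161240112 to 161251166), had 546 and 595 CPM in Dph1 KO livers, against 825 and 1210 CPM in Control livers. Here the Control libraries were the pair that lay apart. Its log2 fold change was -0.83 (SE 0.29; edgeR adjusted p = 0.0746), and DESeq2 gave -0.86 with an adjusted p of 0.00838. Without Control replicate 2 the log2 fold change was -0.53, and without Control replicate 1 it was -1.09.

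The glutathione peroxidases Gpx1 and Gpx4 are selenoproteins: their active sites hold selenocysteine. Gpx1, the main peroxidase of hydrogen peroxide in cytosol and mitochondria (chromosome 9, 108339080 to 108340342, 2 exons), had 1843 and 2418 CPM in Dph1 KO livers, against 3159 and 4493 CPM in Control livers. The Control libraries differed from each other by more than the lower Control library differed from the higher Dph1 KO library. Its log2 fold change was -0.84 (SE 0.32; edgeR adjusted p = 0.0960), and it ranged over -1.08 to -0.57 as single libraries were left out. Gpx4, which reduces lipid hydroperoxides within membranes (chromosome 10, 80053510 to 80056439), had 385 and 773 CPM in Dph1 KO livers, against 1082 and 987 CPM in Control livers. It was not called (log2 fold change -0.84, SE 0.34; edgeR adjusted p = 0.112), and the size of its difference rested on Dph1 KO replicate 1. Without that library the log2 fold change was -0.40 (edgeR adjusted p = 0.325), and without Dph1 KO replicate 2 it was -1.41 (adjusted p = 0.00177). Uniquely matched reads were 27.9% to 29.4% of the Gpx4 reads, which leaves its level uncertain, while the pseudogene Gpx4-ps had 0 reads in both Dph1 KO libraries and at most 2 in a Control library.

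The superoxide dismutase genes both stood lower in Dph1 KO livers without passing the test. Sod1, the copper and zinc enzyme of the cytosol (chromosome 16, 90220742 to 90226324), had 294 and 317 CPM in Dph1 KO livers, against 437 and 554 CPM in Control livers. The log2 fold change was -0.70 (SE 0.26; edgeR adjusted p = 0.0874), and DESeq2 called it lower (-0.73, adjusted p = 0.0175). Sod2, the manganese enzyme of the mitochondrial matrix (chromosome 17, 13007839 to 13018119), had 104 and 114 CPM in Dph1 KO livers, against 124 and 151 CPM in Control livers. The gap between the groups was as small as the gap between the Dph1 KO libraries (log2 fold change -0.34, SE 0.22; edgeR adjusted p = 0.288). On the TPM scale the Sod2 groups overlapped, at 59.6 and 52.4 TPM in Dph1 KO and 50.9 and 56.6 TPM in Control, and the other 9 genes kept apart, as 67.4% of tested genes did.

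Cat, the haem enzyme that splits hydrogen peroxide in peroxisomes (chromosome 2, 103453904 to 103485153, 13 exons), had 1088 and 875 CPM in Dph1 KO livers, against 643 and 830 CPM in Control livers. Dph1 KO replicate 2 and Control replicate 2 were close together, and the gene was not called (log2 fold change 0.41, SE 0.28; edgeR adjusted p = 0.309). With the library total as the only scaling Cat rose (log2 fold change 0.69, edgeR adjusted p = 0.0467). That scaling moved the median of all tested genes to 0.30, against 0.04 with TMM scaling, so the values of all 10 genes shifted upward with it. It called 25.7% of all tested genes (19.8% as rises and 5.93% as falls), and 3 of the 10 (Cat, Prdx3 and Txn1), all as rises. The sign of each of the 10 genes was the same under TMM, RLE and library total scaling.

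The fold changes of all genes followed the GC content of their transcripts, with a Spearman correlation of -0.60 over 13093 genes, which are not independent replicates. The 10 genes spanned 42.2% GC in Sod2 to 60.2% in Gpx4, so this trend bears on them unequally. With this trend and one on exon length removed from every library, 10.7% of 12517 tested genes were called, 4.99% as rises and 5.69% as falls. Of the 10 genes, 4 were called: Prdx3 rose (log2 fold change 0.60, SE 0.14; edgeR adjusted p = 0.0271) and Txn1 rose, while Prdx6 fell by 0.86 (SE 0.21; adjusted p = 0.0296) and Sod2 fell by 0.78 (SE 0.19; adjusted p = 0.0322). Sod1 stood at -0.62 (SE 0.18; adjusted p = 0.0508). The genes rich in GC came close to 0: Gpx1 (57.2% GC) stood at -0.22, Gpx4 at -0.15 and Prdx5 (56.4% GC) at 0.062. The low value of Prdx6 (48.9% GC) was as large with the trend removed as without it.

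**Figure D2:**
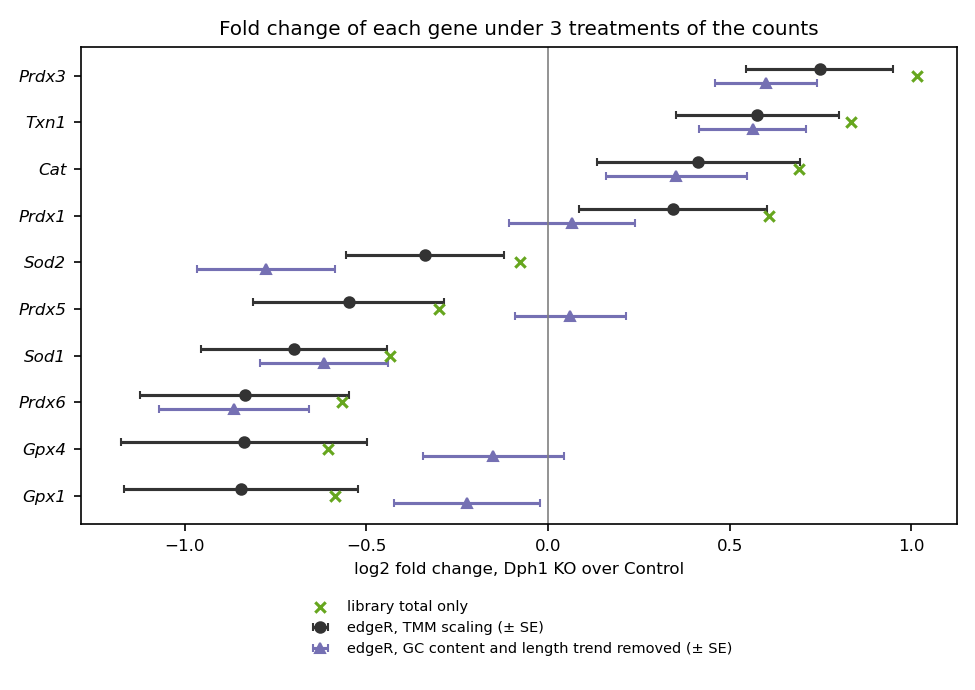
Log2 fold change of Dph1 KO over Control (horizontal axis) for each gene, from edgeR with TMM scaling (black, ± SE), with the GC content and length trend removed (purple, ± SE) and with the library total as the only scaling (green crosses). Gpx1, Gpx4, Prdx5 and Prdx1 move toward 0 when the trend is removed and Sod2 moves away from it, while Prdx3, Txn1, Cat, Sod1 and Prdx6 stay near their black points.

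Levels of different genes were set side by side in TPM, which counts exon reads per exon length. Gpx1 was by far the most abundant of the 10 in every library, at 3891 and 4089 TPM in Dph1 KO and 4757 and 6177 TPM in Control. It made up 43.6% and 46.4% of the summed TPM of the 10 genes in Dph1 KO, against 49.6% and 55.7% in Control. The sum itself was 8925 and 8802 TPM in Dph1 KO and 9599 and 11088 TPM in Control. The mitochondrial genes Prdx3 and Sod2 were the lowest in both groups and changed places, with Prdx3 at 124 and 85.1 TPM in Dph1 KO and 47.3 and 45.3 TPM in Control. In Control the order by mean was Gpx1, Gpx4, Sod1, Prdx5, Prdx6, Cat, Prdx1, Txn1, Sod2 and Prdx3, where the neighbours Gpx4 and Sod1, Prdx5 and Prdx6, and Cat and Prdx1 overlapped in range. In Dph1 KO each gene from Gpx4 down to Txn1 overlapped the next one in order, while genes further apart did not, such as Gpx4 at 703 and 1137 TPM and Txn1 at 459 and 399 TPM. The 4 peroxiredoxin genes together held about the same summed TPM, 1933 and 1688 in Dph1 KO and 1712 and 1800 in Control. This likeness is shown for TPM only, which is not TMM-scaled. Each of the 10 genes had a higher log2 difference in TPM than with TMM scaling, such as -0.44 and -0.83 for Prdx6. The 2 glutathione peroxidase genes summed to 4594 and 5225 TPM in Dph1 KO, against 6174 and 7356 TPM in Control. Cat made up 10.2% and 6.76% of the summed TPM of the 10 genes in Dph1 KO and 4.04% and 4.15% in Control.

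**Figure D3:**
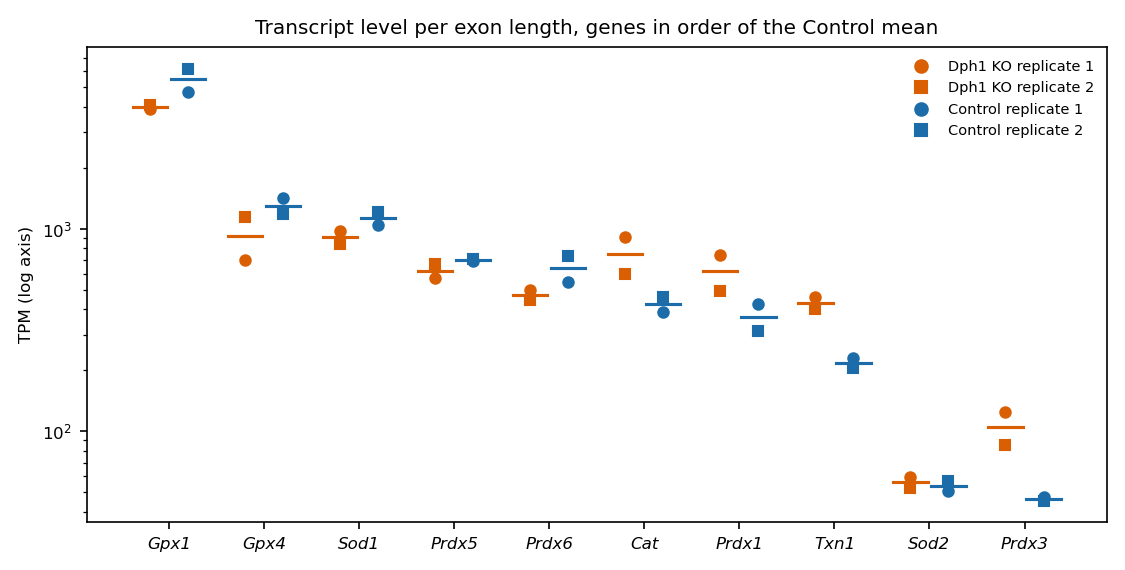
TPM on a log axis for the 10 genes, ordered by the Control mean, in each Dph1 KO library (orange) and Control library (blue), with lines at group means. Gpx1 stands alone at the top, with 3891 and 4089 TPM in Dph1 KO and 4757 and 6177 TPM in Control, and Prdx3 stands above Sod2 in Dph1 KO and below it in Control.

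Ratios between 2 genes within a library do not depend on how that library is scaled. The pairs below were chosen after their values were seen, so they get no test, and 2 libraries against 2 cannot give a two-sided exact permutation p below 0.333. Cat had 59.0 and 36.2 reads per 100 Gpx1 reads in Dph1 KO, against 20.4 and 18.5 in Control, a 2.38-fold higher ratio that came to 1.49-fold from the fold changes corrected for GC content and length. Prdx3 had 45.8 and 27.0 reads per 100 Prdx5 reads in Dph1 KO and 14.5 and 13.7 in Control. This 2.49-fold higher ratio came to 1.45-fold after the same correction. Against Sod2, which makes the hydrogen peroxide that Prdx3 removes, Prdx3 had 79.0 and 62.1 reads per 100 in Dph1 KO and 35.6 and 30.9 in Control. Both Prdx3 ratios were thus higher in each Dph1 KO library than in either Control library. Txn1 had 76.5 and 76.0 reads per 100 Sod1 reads in Dph1 KO and 36.5 and 27.6 in Control, and the Dph1 KO libraries were nearly equal. Prdx1 had 88.6 and 66.8 reads per 100 Prdx6 reads in Dph1 KO and 46.6 and 25.6 in Control. The ratio of Gpx4 to Gpx1, the 2 selenoprotein genes, overlapped between the groups, at 20.9 and 32.0 per 100 in Dph1 KO and 34.3 and 22.0 in Control. Each of the higher ratios sets a gene that stood higher in both Dph1 KO libraries over one that stood lower in both. Its separation of the groups therefore follows from the CPM of the 2 single genes and adds no further result. Ratios between 2 genes also do not remove unequal GC content. The corrected values for the other higher ratios were 2.60-fold for Prdx3 over Sod2, 1.91-fold for Prdx1 over Prdx6 and 2.26-fold for Txn1 over Sod1.

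**Figure D4:**
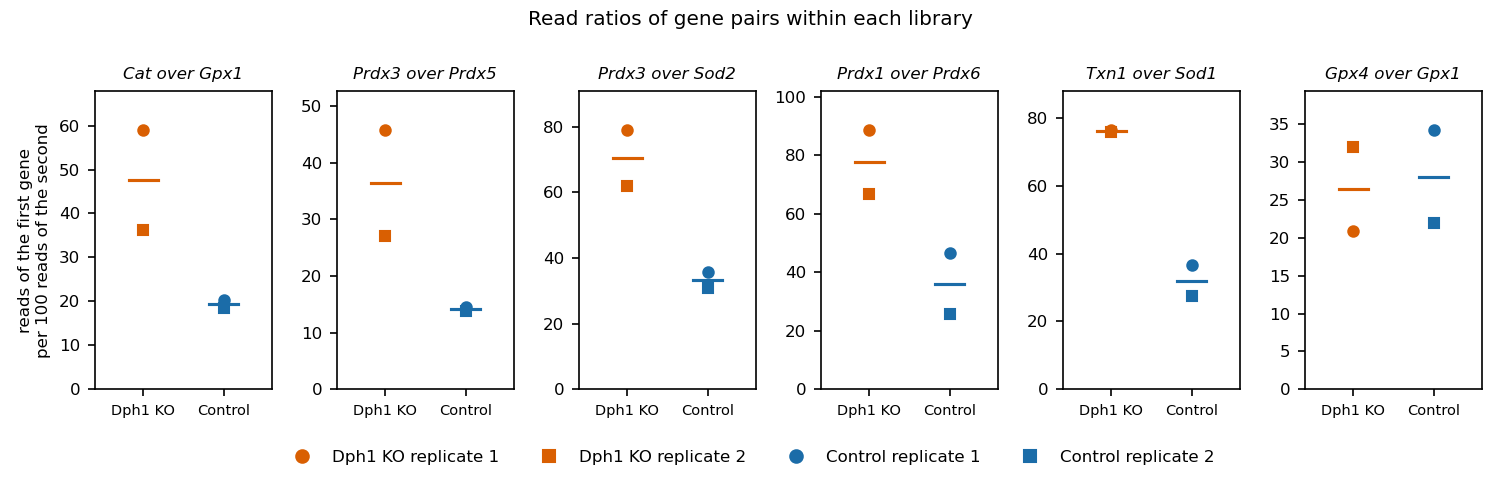
Reads of the first gene per 100 reads of the second (vertical axes, each from 0) in the Dph1 KO (orange) and Control (blue) libraries for 6 pairs of genes, with lines at group means. The first 5 ratios are higher in both Dph1 KO libraries, such as 76.5 and 76.0 against 36.5 and 27.6 for Txn1 over Sod1, and the ratio of Gpx4 to Gpx1 overlaps.

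Exon junction reads, which come from spliced transcripts, gave the same sign as all exon reads for each of the 10 genes, and the log2 ratios of the 2 read classes differed by at most 0.12. Intron reads, which come largely from unspliced transcripts, were few. For Prdx6 they were 3.76% of reads (95% Clopper-Pearson interval 3.44% to 4.10%) and 1.99% (1.76% to 2.24%) in Dph1 KO, against 1.41% (1.23% to 1.61%) and 1.07% (0.938% to 1.22%) in Control. For Sod1 they were 3.09% (2.69% to 3.52%) and 2.67% (2.30% to 3.08%) in Dph1 KO, against 1.62% (1.35% to 1.92%) and 1.35% (1.13% to 1.59%) in Control. The intron share was thus higher in both Dph1 KO libraries for these 2 genes, beyond counting error. It was also higher over all nuclear genes, at 5.77% and 4.67% in Dph1 KO and 4.05% and 3.36% in Control, and the part of this in the values of single genes was not tested. In CPM, Sod1 had 9.06 and 8.46 from introns and 284 and 308 from exons in Dph1 KO, against 7.07 and 7.45 from introns and 429 and 546 from exons in Control. Its exon level was thus lower in Dph1 KO while its intron level was slightly higher. Prdx3, in contrast, had 0.847 and 1.28 CPM from introns in Dph1 KO and 0.870 and 1.22 CPM in Control, groups that overlap, while its exon level was 81.1 and 69.5 CPM in Dph1 KO and 43.4 and 45.5 CPM in Control. These intron values rest on 20 and 28 reads in Dph1 KO and 16 and 22 in Control. Cat had 35.7 and 16.4 CPM from introns in Dph1 KO and 14.4 and 13.6 CPM in Control, with Dph1 KO replicate 1 apart from the rest.

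**Figure D5:**
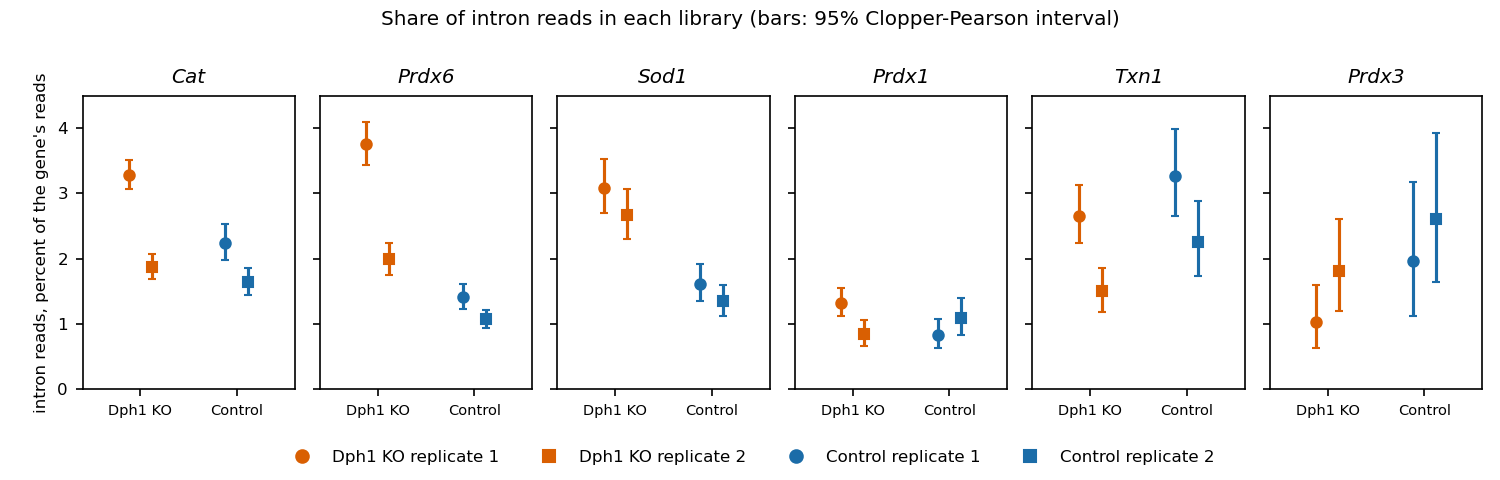
Intron reads as a percent of the reads of the gene (vertical axis, from 0) for 6 genes in the Dph1 KO (orange) and Control (blue) libraries, with 95% Clopper-Pearson intervals that cover counting error only. Prdx6 and Sod1 have separate groups, with 3.76% and 1.99% in Dph1 KO against 1.41% and 1.07% in Control for Prdx6. Prdx3 stands lower in Dph1 KO, at 1.03% and 1.81% against 1.97% and 2.62% in Control. Its intervals overlap between the groups except for Dph1 KO replicate 1 and Control replicate 2.

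Of 9 listed relatives (other peroxiredoxins, glutathione peroxidases, the extracellular dismutase Sod3 and the copper chaperone Ccs) 6 passed the filter on low counts. Of these 6, 3 fell (7.47% of all tested genes fell) and 3 were not called, all 6 had a log2 fold change below 0, and the median was -0.72. Gpx3, the secreted glutathione peroxidase, had 7.25 and 11.9 CPM in Dph1 KO, against 24.9 and 20.8 CPM in Control, and fell by 1.26 on the log2 scale (SE 0.26; edgeR adjusted p = 0.0178). That call was kept with each library left out and after GC and length correction (-0.79, adjusted p = 0.0238). Gpx7, a glutathione peroxidase of the endoplasmic reticulum, fell by 1.32 (SE 0.30) with an edgeR adjusted p of 0.0258, which was lost without either Control library and without Dph1 KO replicate 1. Ccs, which loads copper into the Sod1 protein, had 153 and 199 CPM in Dph1 KO, against 295 and 355 CPM in Control, and fell by 0.88 (SE 0.25; adjusted p = 0.0464). The Ccs call was lost after GC and length correction (-0.31, adjusted p = 0.234), without either Control library and without Dph1 KO replicate 1. Prdx2, abundant in red cells, had 113 and 162 CPM in Dph1 KO and 185 and 218 CPM in Control and was not called (edgeR adjusted p = 0.146). Prdx4, the peroxiredoxin of the endoplasmic reticulum, had 66.2 and 79.1 CPM in Dph1 KO and 106 and 87.0 CPM in Control (adjusted p = 0.202).

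The thioredoxin and glutaredoxin list held 17 genes, and the products of only some of them carry electrons to peroxidases. Of the 17, 1 rose and 1 fell, where 12.3% of all tested genes were called. The median log2 fold change of the 17 was -0.094. Before adjustment 1 was higher and 6 were lower (p under 0.05), and DESeq2 called 1 rise and 4 falls. Txnrd2, which reduces the mitochondrial thioredoxin that serves Prdx3, had 34.5 and 38.2 CPM in Dph1 KO, against 55.7 and 74.1 CPM in Control, and fell by 0.83 (SE 0.22; edgeR adjusted p = 0.0359). The Txnrd2 call was lost after GC and length correction (-0.43, adjusted p = 0.115) and without either Control library. Sesn3, a stress-induced sestrin, rose with 8.05 and 5.95 CPM in Dph1 KO and 2.83 and 3.39 CPM in Control (log2 fold change 1.17, SE 0.28; edgeR adjusted p = 0.0280), which was lost without either Control library and without Dph1 KO replicate 1. None of 10 tested glutathione supply genes was called by edgeR, with 1 higher and 2 lower before adjustment (p under 0.05) and 1 fall in DESeq2. Gss, which completes glutathione synthesis, had 174 and 213 CPM in Dph1 KO and 216 and 249 CPM in Control (edgeR adjusted p = 0.442). Gclc, the catalytic subunit of the first enzyme of glutathione synthesis, had 442 and 370 CPM in Dph1 KO and 247 and 287 CPM in Control (log2 fold change 0.61, edgeR adjusted p = 0.116).

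Since Gpx1 and Gpx4 need selenocysteine, genes of selenoprotein synthesis and other selenoproteins were set beside them. Of 18 tested, 2 rose and 2 fell, where 12.3% of all tested genes were called, 4.86% as rises and 7.47% as falls. The median log2 fold change of the 18 was 0.11. Before adjustment 5 were higher and 3 were lower in edgeR (p under 0.05), and DESeq2 called 4 rises and 2 falls. Scly, which frees selenium from selenocysteine for reuse, had 131 and 157 CPM in Dph1 KO, against 239 and 324 CPM in Control, and fell by 0.97 (SE 0.25; edgeR adjusted p = 0.0376). Sepn1, a selenoprotein of the endoplasmic reticulum, fell by 0.74 (SE 0.21; adjusted p = 0.0432). The selenoprotein genes H47 (now Selenos; log2 fold change 0.72, SE 0.19, edgeR adjusted p = 0.0388) and Ept1 (now Selenoi; 0.89, SE 0.24, adjusted p = 0.0404) rose. After GC and length correction Scly and H47 were still called and Sepn1 and Ept1 were not. All 4 calls were lost without either Control library, and that of Sepn1 also without Dph1 KO replicate 1.

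Among sources of hydrogen peroxide, 1 of 22 tested genes rose and none fell, where 4.86% of all tested genes rose and 7.47% fell. At an unadjusted p under 0.05 in edgeR 5 were higher and 1 was lower, and DESeq2 called 1 rise and no fall. The gene that rose, Maoa, encodes an amine oxidase of the outer mitochondrial membrane and had 6.95 and 4.21 CPM in Dph1 KO and 1.79 and 2.22 CPM in Control (a log2 difference of 1.47, SE 0.33, edgeR adjusted p = 0.0245). Leaving out either replicate 1, of Control or of Dph1 KO, ended the Maoa call. Of 15 peroxisome import and assembly genes, which bring Cat and other enzymes into the organelle, 1 rose and 1 fell. This is near the 12.3% called over all tested genes. Before adjustment 2 were higher and 3 were lower in edgeR (p under 0.05), and DESeq2 called 1 rise and 2 falls. Pex7, an import receptor, rose by 0.82 on the log2 scale (SE 0.21; edgeR adjusted p = 0.0356), and Pex6, an ATPase that recycles the receptor that imports Cat, fell by 1.00 (SE 0.29; adjusted p = 0.0468). Pex7 was still called after GC and length correction and Pex6 was not, both calls were lost without either Control library, and that of Pex6 also without Dph1 KO replicate 1. None of 12 regulators of antioxidant genes was called by edgeR, with 1 higher and 1 lower before adjustment (p under 0.05) and 1 fall in DESeq2. Nfe2l2, which encodes NRF2, had 134 and 92.1 CPM in Dph1 KO and 65.1 and 76.9 CPM in Control (log2 fold change 0.67, SE 0.24; edgeR adjusted p = 0.0817). Esrra, a nuclear receptor of mitochondrial genes, had 81.9 and 109 CPM in Dph1 KO and 153 and 164 CPM in Control (-0.73, SE 0.23; adjusted p = 0.0589) and was called lower after GC and length correction (-0.68, adjusted p = 0.0272).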

How the data were processed

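Liver RNA of 2 Dph1 KO and 2 Control libraries was compared. Per the labels' protocols, stranded mRNA libraries were made from Trizol-extracted RNA of frozen livers. Per the submitters' processing notes the build was GRCm38 (mm10). Neither the aligner, the counter nor the use of strand in counting was stated. The deposited read counts per gene (total, unique, exon, junction and intron) and the TPM and RPKM values come from the authors, per the file headers. Other deposited columns hold annotation such as exon length. Replicates were numbered in accession order. Libraries within a genotype varied beyond counting noise (chi-square per degree of freedom 77.3 in Dph1 KO and 29.7 in Control) and were kept as separate samples.

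Total gene reads (19474596 to 21137358 per library, 89.3% to 90.2% of them uniquely matched) were filtered with filterByExpr, scaled by TMM and tested with edgeR 4.0.16 in R 4.3.3 (glmQLFit, glmQLFTest, genotype alone in the model). Benjamini-Hochberg adjustment ran over 13303 genes with a threshold of 0.05, and only genes past it are said to have risen or fallen. The SE is the log2 fold change over the square root of F, and the biological coefficient of variation was 18.5%. Alternatives were RLE and library total scaling, no filter (at least 1 read), unique reads, exon reads, DESeq2 1.42.0, each library left out, and a trend on GC content (longest GENCODE M21 transcript, found for 98.4% of tested genes) and exon length, estimated in each library by mgcv 1.9.3 with 6 basis functions and given to edgeR as offsets. Junction reads were added after the data were seen. The test was also run on simulated counts, drawn with the same spread for all genes and no trend on GC content. That run does not show how the test behaves where such a trend is present. Intervals are 95% Clopper-Pearson intervals and cover counting error only.

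The 10 genes, the 7 related and 7 marker lists (171 entries, 15 matched through older symbols and 1 unmatched) and the tests were chosen with earlier results of these data known. Named genes are the 10, Dph1, Prdx2, Prdx4, Gpx3, and in each related list up to 4 called members with the lowest adjusted p, or the 2 of highest mean TPM. From the marker lists only Ltf, Hba-a2 and Hba-a1 are named. Promoters are from the RefSeq table for GRCm38.p6.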

Additional observations from a re-analysis of the deposited data

How the results depend on the processing

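The count of the 10 genes called, 1 with the settings of the report, was the same with RLE scaling, no filter on low counts, unique reads and exon reads, each time Prdx3. It was 3 with the library total as the only scaling, 5 with DESeq2 and 4 after GC and length correction, which also tested fewer genes (12517). Leaving out 1 library gave 0 to 7. It was 0 without Control replicate 1 (edgeR; 2 lower at an unadjusted p under 0.05) and without Control replicate 2 (1 higher), 2 without replicate 1 of Dph1 KO and 7 without its replicate 2, where 39.3% of all genes were called. In these fits the spread comes only from the genotype that still has 2 libraries, and the lone library is taken to vary equally. DESeq2 was run on all 4 libraries only. Over all genes the count of 1640 became 3423 with library total scaling and 528 to 5405 with a library left out. In the 7 related lists 12 of 100 tested genes were called, 28 with library total scaling, 20 with DESeq2 and 2 to 43 with a library left out. Of 120 alternative log2 fold changes of single genes, 1 changed sign: Prdx5 had a log2 fold change of 0.062 after GC and length correction, against -0.55. In 16 a gene was newly called, and in 2 the Prdx3 call was lost. The causes were not tested. RPKM in place of TPM moved the log2 difference of each of the 10 genes by the same -0.14. This changed the sign of Sod2, from 0.058 in TPM to -0.082 in RPKM, where TMM scaling gave -0.34. No paired analysis was possible because the labels give no replicate numbers that groups share. Changes under 2-fold are near the limit of 2 libraries a group, and a gene that was not called is not shown to be unchanged.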
